A study of Mus musculus with 2 samples.

Results

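The genes described are the insulin-like growth factor (IGF) ligands Igf1 and Igf2, their signalling receptor Igf1r, and the IGF binding proteins Igfbp2, Igfbp3, Igfbp4, Igfbp5, Igfbp6 and Igfbp7, which are 9 of the 27998 genes in the count matrices. They were chosen by name, and their unique molecular identifiers (UMIs) were summed over the cells of each cell class and tissue, and over fibro-adipogenic progenitors (FAPs). A FAP was a cell with at least 1 UMI of Pdgfra, a receptor that marks these progenitors, and at least 50 UMIs of Dcn, which encodes the matrix proteoglycan decorin. The gate took 4347 of 7440 kept cells.

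The study assayed mononuclear cells of C57BL/6J mice in 2 droplet libraries, 1 from a limb muscle (quadriceps) and 1 from the main muscle of breathing (diaphragm). Each library combined tissue of 5 animals, so the tissue, the pool of animals and the library cannot be told apart. Both muscles were digested with collagenase B and dispase II, passed over a Lympholyte-M density gradient and sorted as viable cells by light scatter, so muscle fibres were not sampled and each class is what survived digestion. Age and sex were not given in the sources used here, and no agent or allele separated the groups.

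IGF1 and IGF2 are secreted peptides that signal through the receptor tyrosine kinase IGF1R and promote growth and survival of muscle precursors and fibres. IGFBP2 to IGFBP6 bind the ligands with high affinity and hold or release them near the receptor, while IGFBP7 binds IGFs weakly and is known as a matrix and vessel-associated protein. Within muscle, stromal cells are a known source of locally made IGF1.

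The members lie at 8 places in the genome (GRCm38, GENCODE M21). Igfbp2 (chr1:72824503-72852474, plus strand) and Igfbp5 (chr1:72857932-72874884, minus strand) face each other tail to tail across 5457 bases. Igfbp3 (chr11:7206086-7213923, minus strand) lies 3539 bases from Igfbp1, and Igfbp4 (chr11:99041244-99054392, plus strand) is on the same chromosome. Igfbp6 is at chr15:102144362-102149511 on the plus strand, Igfbp7 at chr5:77349240-77408041 on the minus strand, and Igf1r at chr7:67952827-68233668 on the plus strand. Igf2 (chr7:142650766-142666816, minus strand) lies 72622 bases from H19, its imprinted neighbour, and overlaps the antisense gene Igf2os over 7124 bases. Igf1 (chr10:87858265-87937042, plus strand) overlaps the antisense gene Igf1os over 5117 bases. Whether reads were assigned by strand is not given in the sources used here, so in these overlaps reads of the sense and antisense gene may not be told apart.

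The 5 binding proteins other than Igfbp2, which was almost absent, differed in the motifs before their start sites. The bases just before the RefSeq start of each are shown (GRCm38.p6), because these genes had unlike levels across tissues and FAP subclusters. Capitals mark matches, on either strand, to the TATA motif TATAAA, the CCAAT box, the GC box GGGCGG, the AP-1 motif TGANTCA or a CArG box, and the windows are chr11:7213924-7214073 (minus strand), chr11:99041094-99041243 (plus), chr1:72874885-72875015 (minus), chr15:102144036-102144185 (plus) and chr5:77408046-77408195 (minus) in that order.
Igfbp3: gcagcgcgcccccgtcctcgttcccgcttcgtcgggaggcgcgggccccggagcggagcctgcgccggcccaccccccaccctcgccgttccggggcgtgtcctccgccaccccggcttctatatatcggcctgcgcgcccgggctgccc
Igfbp4: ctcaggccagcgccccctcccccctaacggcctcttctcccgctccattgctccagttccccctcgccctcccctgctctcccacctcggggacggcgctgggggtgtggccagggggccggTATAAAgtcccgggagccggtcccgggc
Igfbp5: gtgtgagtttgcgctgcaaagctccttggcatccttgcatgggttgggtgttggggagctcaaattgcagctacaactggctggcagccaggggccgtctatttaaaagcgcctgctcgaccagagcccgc
Igfbp6: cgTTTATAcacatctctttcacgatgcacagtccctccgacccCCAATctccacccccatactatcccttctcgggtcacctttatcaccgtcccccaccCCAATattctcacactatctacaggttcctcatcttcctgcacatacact
Igfbp7: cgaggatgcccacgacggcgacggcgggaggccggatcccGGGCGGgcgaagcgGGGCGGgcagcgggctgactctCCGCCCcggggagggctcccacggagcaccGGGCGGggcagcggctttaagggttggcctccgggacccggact
The Igfbp4 window held TATAAA 28 bases before the start, and the Igfbp6 window held it 148 bases before the start on the opposite strand, beside CCAAT at 107 and 50 bases. The Igfbp7 window held GGGCGG at 110, 96, 74 and 44 bases, and the Igfbp3 and Igfbp5 windows held none of the letters searched. Only full matches to these motifs were sought, so near matches, such as TATA-like runs of letters, are not marked. Of 32851 RefSeq promoter windows of 150 bases, 7.57% held the TATA motif, 24.5% the CCAAT box, 28.6% the GC box, 4.24% the AP-1 motif and 0.916% a CArG box. The Igfbp5 window was shortened to 131 bases to leave out annotated exon.

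The quadriceps matrix held 5159 barcodes and 50854519 UMIs, of which 5010 barcodes were kept (median 9880.5 UMIs), and the diaphragm matrix held 2499 barcodes and 28545242 UMIs, of which 2430 were kept (median 11983.5 UMIs). Over 5% of UMIs were mitochondrial in 56.7% of kept quadriceps cells and 31.6% of kept diaphragm cells, and 5 barcode sequences occurred in both libraries. FAPs made up 46.7% of quadriceps cells (2339 cells, median 10782 UMIs) and 82.6% of diaphragm cells (2008 cells, median 12572.5 UMIs). Of gated FAPs, 106 in quadriceps and 4 in diaphragm sat in clusters named for another cell type, and 9.83% and 20.3% held a UMI of the tendon gene Tnmd. A further 550 gated diaphragm cells and 20 gated quadriceps cells sat in unnamed clusters, in diaphragm mostly one led by Slit2 and Mfap4. Just outside the gate, with 20 to 49 UMIs of Dcn, lay 76 and 57 cells. The other quadriceps classes of at least 20 cells, called by their markers, were smooth muscle-like (1118 cells), B cell-like (215), satellite cell-like (200), Schwann-like (176), T cell-like (133), tenocyte-like (90), NK cell-like (78), endothelial-like (39) and macrophage or monocyte-like (69). In diaphragm T cell-like (67), B cell-like (49), smooth muscle-like (42) and satellite cell-like (20) cells reached that number. Over 5% of UMIs were mitochondrial in 99.6% of smooth muscle-like, 89.7% of endothelial-like, 89% of satellite cell-like and 86.7% of tenocyte-like quadriceps cells, against 24.4% of quadriceps FAPs and 22.0% of diaphragm FAPs.

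Most IGF axis UMIs came from FAPs, but not for every member. In quadriceps FAPs held 92.0% of the 11904 Igf1 UMIs, 87.3% of the 104888 Igfbp6 UMIs and 86.6% of the 2649 Igfbp3 UMIs. Smooth muscle-like cells held 71.4% of the 878 Igf2 UMIs and 53.2% of the 94800 Igfbp7 UMIs, more than the 11.8% and 41.1% held by FAPs. Igf1r, Igfbp4 and Igfbp5 were shared between these classes, with 58.1%, 56.1% and 51.6% of their UMIs in FAPs and 29.3%, 37.1% and 36.6% in smooth muscle-like cells. Of the 50854519 UMIs of all genes in the quadriceps matrix, FAPs held 26559263 and smooth muscle-like cells 16566944. The split of Igf1r, Igfbp4 and Igfbp5 thus lay near that of all UMIs. In diaphragm, where FAPs were 82.6% of cells, FAPs held between 77.9% (Igfbp5) and 97.2% (Igf1) of the UMIs of each member other than Igfbp2. FAPs also held 25876869 of the 28545242 UMIs of all genes in the diaphragm matrix. Against that share of all UMIs, Igfbp5 and Igf2 (83.6%) lay lower in FAPs, and Igf1r (89.0%) lay near it. The members' shares are over kept cells, while the matrix totals of both tissues also count barcodes that were not kept. Igfbp2 had 56 UMIs in quadriceps and 3 in diaphragm over all kept cells.

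**Figure D1:**
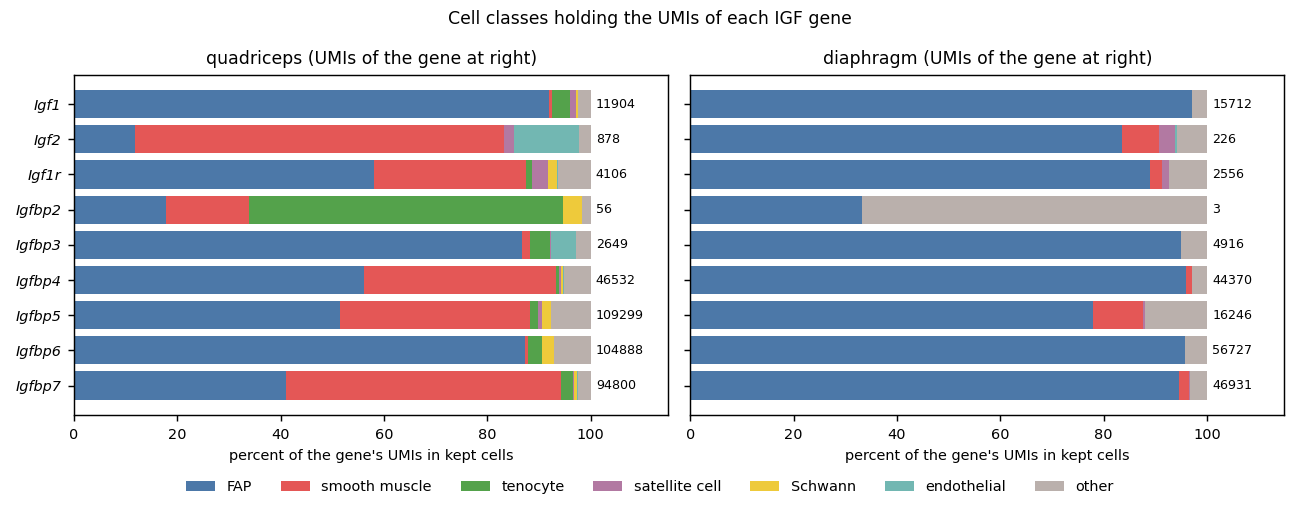
Percent of the UMIs of each IGF gene (vertical axis) held by each cell class (colours) in kept cells of quadriceps (left) and diaphragm (right), with the number of UMIs of the gene beside each bar. FAPs hold most of Igf1, Igfbp3 and Igfbp6 in both tissues, and in quadriceps smooth muscle-like cells hold 71.4% of Igf2 and 53.2% of Igfbp7.

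The first comparison asked which cell class holds the highest level of each member. Levels are UMIs summed over a class and scaled to a common total (counts per 1e+06, CPM), ranges in parentheses are exact Poisson 95% intervals, and these cover counting error only, since cells are not replicates and each tissue was 1 library. The order is first given over the named classes of at least 20 cells. Of the 9 members none had its highest quadriceps level in FAPs: tenocyte-like cells led for Igf1, Igfbp2, Igfbp5, Igfbp6 and Igfbp7, endothelial-like cells for Igf2 and Igfbp3, smooth muscle-like cells for Igfbp4 and satellite cell-like cells for Igf1r. The ungated cells of FAP-like clusters stood above these leaders in quadriceps for Igfbp6 (5283 CPM), Igfbp5 (5020 CPM) and Igfbp4 (1271 CPM). For the other members they lay below them. In diaphragm, where 5 named classes had at least 20 cells and no tenocyte-like or endothelial-like class did, FAPs led for 5 members (Igf1, Igfbp2, Igfbp3, Igfbp4 and Igfbp6). Igfbp2 rested there on 1 UMI, and its interval overlapped those of classes without a UMI, so it is not ordered. The ungated cells of FAP-like clusters had Igfbp6 at 2136 CPM (2018 to 2260), which overlapped the FAP interval. With unnamed classes counted too, FAPs led for 1 member in diaphragm (Igfbp4) and still 0 in quadriceps. The ungated cells of the Slit2 Mfap4-led cluster (32 diaphragm cells) then led for Igf1, Igfbp3 and Igfbp7, and a class led by Gm42418 and Clu (59 diaphragm cells, median 1793 UMIs) for Igfbp2, on 1 UMI, and Igfbp6. This order depended on cells with many mitochondrial UMIs, as FAPs led for 7 members in quadriceps and 8 in diaphragm once cells with over 5% mitochondrial UMIs were left out, a limit that removes most smooth muscle-like, endothelial-like and tenocyte-like cells. Both counts include Igfbp2, which had 10 and 1 UMIs in FAPs before that limit.

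Among the ligands, Igf1 was a gene of the fibroblast classes. In quadriceps its level was 618 CPM (560 to 680) in tenocyte-like cells, which make tendon matrix, and 412 CPM (405 to 420) in FAPs. Satellite cell-like cells, the muscle stem cells, followed with 128 CPM (107 to 152), and these 3 intervals did not overlap. Schwann-like cells, which ensheathe nerve, had 47.6 CPM (35.1 to 63.1), within the interval of the unnamed Gm42418 Clu-led class at 63.4 CPM (42.1 to 91.6). Of the 48 Schwann-like UMIs, 62.5% lay in 5 cells. The class had Igf1 at 11.5% and Dcn at 22.6% of the FAP level. The other named classes were at or under 11.9 CPM (B cell-like, 8 UMIs), with 3.20 CPM (2.40 to 4.18) in smooth muscle-like cells and 0 UMIs in NK cell-like and endothelial-like cells, which allows up to 9.94 and 26.6 CPM. In diaphragm Igf1 was at 1002 CPM (877 to 1140) in the ungated Slit2 Mfap4-led cells, of which 5 held 68.3% of the UMIs, at 589.9 CPM (581 to 599) in FAPs, at 184 CPM (128 to 258) in the Gm42418 Clu-led class, at 55.6 CPM (6 UMIs) in satellite cell-like cells and at 2.08 CPM (1 UMI) in smooth muscle-like cells.

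The Igf1 level outside FAPs was set beside Dcn, whose RNA is abundant in FAPs. In quadriceps the Dcn level was 0.651% of the FAP level in satellite cell-like cells and 0.431% in smooth muscle-like cells, whereas the Igf1 level was 31.0% and 0.776% of the FAP level. The matrix genes Col1a1 and Col3a1 stood at 0.974% and 11.3% in satellite cell-like cells and at 3.10% and 0.789% in smooth muscle-like cells. Satellite cell-like cells thus held Igf1 above the share of each of these genes, though Col3a1 lay far above Dcn. In smooth muscle-like cells Igf1 lay above the Dcn share and below the other shares, with 56.6% of its UMIs in 5 cells. Thinned to 1000 UMIs per cell, 28.6% of quadriceps FAPs and 40.7% of diaphragm FAPs had an Igf1 UMI (75.2% and 92.2% before thinning), against 11.0% of quadriceps satellite cell-like cells (33.5% before, median 5007 UMIs) and 1.40% of B cell-like cells (2.33% before, median 2997 UMIs), a class that should lack the gene.

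Igf2, the ligand best known for its part in fetal growth and in myoblast differentiation, had a pattern unlike that of Igf1. In quadriceps its level was 984 CPM (809 to 1185, 111 UMIs) in the 39 endothelial-like cells, which line vessels, and 37.8 CPM (34.9 to 40.9, 627 UMIs) in smooth muscle-like cells. Satellite cell-like cells had 16.1 CPM (9.21 to 26.2) and FAPs 3.92 CPM (3.20 to 4.74), while tenocyte-like and Schwann-like cells had no UMI, which allows up to 4.39 and 2.98 CPM. Thinned to 1000 UMIs, 51.3% of endothelial-like cells (34.8% to 67.6%) had an Igf2 UMI and 76.9% before thinning at a median of 2329 UMIs. Smooth muscle-like cells, with a median of 14752.5 UMIs, had 3.58% and 30.9%, and B cell-like cells in quadriceps 0.465% and 1.40%. The endothelial-like level rests on 1 library, since diaphragm held 1 such cell. In diaphragm Igf2 was at 64.9 CPM (26.1 to 134, 7 UMIs) in satellite cell-like cells, at 33.3 CPM (16 UMIs) in smooth muscle-like cells, whose interval overlapped it, and at 7.30 CPM (6.30 to 8.42) in FAPs.

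Igf1r, the receptor through which both ligands signal, was the most evenly spread member among the named non-immune classes. In quadriceps it ran from 62.0 CPM (7 UMIs) in endothelial-like cells to 129 CPM (108 to 153) in satellite cell-like cells. FAPs lay between at 89.8 CPM (86.3 to 93.5), smooth muscle-like cells at 72.7 CPM (68.7 to 77.0), Schwann-like cells at 70.4 CPM (55.0 to 88.9) and tenocyte-like cells at 68.8 CPM (50.5 to 91.5). The intervals of the last 3 overlapped, while those of satellite cell-like cells, FAPs and smooth muscle-like cells stood apart. Satellite cell-like cells were the highest in diaphragm too, at 325 CPM (226 to 451), although on 35 UMIs from 20 cells, and T cell-like cells followed with 138 CPM (102 to 182).

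Immune classes separated by Igf1r level. B cell-like cells had 2.97 CPM in quadriceps (2 UMIs) and 1 UMI in diaphragm, NK cell-like cells had no UMI, and macrophage or monocyte-like cells had 10.8 CPM. T cell-like cells had 54.9 CPM (40.2 to 73.2). Most of their Igf1r UMIs, 32 of 46 in quadriceps and 49 of 50 in diaphragm, came from cells of a mixed cluster led by Ube2c and Top2a, which showed 3 T cell markers and 5 FAP markers, and the rest from the cluster led by Cd3d, part of the T cell receptor complex. Clustered at a resolution of 2, which set 17 Ube2c Top2a-led cells apart from the class, the T cell-like level was 52.6 CPM in quadriceps and 142 CPM in diaphragm. After thinning, 8.51% of quadriceps FAPs and 8.72% of diaphragm FAPs had an Igf1r UMI (55.5% and 59.4% before), with 13.5% of quadriceps satellite cell-like cells (41.5% before) and 0% of the 215 B cell-like cells (0.465% before).

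Igfbp2, a circulating binding protein made mainly by liver, was almost absent. Tenocyte-like cells had 34 UMIs (49.8 CPM), but 1 cell held every one of them. Quadriceps FAPs had 10 UMIs (0.377 CPM) and diaphragm FAPs 1 UMI (0.0386 CPM), and the gene is not described further.

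Igfbp3, the main carrier of IGFs in serum and a product of endothelial and stromal cells, was concentrated in few cells. In quadriceps it was at 1108 CPM (922 to 1320) in endothelial-like cells, at 145 CPM (118 to 176) in tenocyte-like cells and at 86.4 CPM in FAPs, and 5 cells held 68.8% of the endothelial-like and 71.7% of the tenocyte-like UMIs. In diaphragm FAPs had 180.3 CPM (175 to 186) and the ungated Slit2 Mfap4-led cells 832 CPM (718 to 959), 90.1% of it in 5 cells. Smooth muscle-like cells had 2.72 CPM in quadriceps and 6.24 CPM (3 UMIs) in diaphragm, and no UMI was seen in quadriceps B, T or NK cell-like, macrophage or monocyte-like or Schwann-like cells. After thinning 4.79% of quadriceps FAPs, 10.4% of diaphragm FAPs and 38.5% of endothelial-like cells had an Igfbp3 UMI (16.0%, 27.5% and 53.8% before).

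Igfbp4, a binding protein that mostly holds IGFs inactive until it is cleaved, was high in both FAPs and smooth muscle-like cells. In quadriceps their levels were 983 CPM (971 to 995) and 1043 CPM (1028 to 1059). In diaphragm the order was the other way round, with 1647 CPM (1631 to 1662) in FAPs and 942 CPM (857 to 1033) in smooth muscle-like cells. Endothelial-like cells had 691 CPM (546 to 863), tenocyte-like cells 427 CPM (380 to 479), T cell-like cells 255 CPM (222 to 292) and satellite cell-like cells 216 CPM (189 to 247) in quadriceps. The T cell-like signal lay in the Cd3d-led cluster, at 341 CPM, more than in the Ube2c Top2a-led cluster, at 79.8 CPM. B cell-like cells had 28.2 CPM in quadriceps and 27.3 CPM in diaphragm, and 2.33% of those in quadriceps had an Igfbp4 UMI after thinning (8.84% before), against 50.6% of quadriceps FAPs and 73.1% of diaphragm FAPs (88.0% and 99.8% before).

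Igfbp5, which binds matrix and is known for its regulation during myogenesis, was spread over the structural classes of quadriceps. Tenocyte-like cells had 2673 CPM (2552 to 2798), of which 5 cells held 44.8% of the UMIs, smooth muscle-like cells 2414 CPM (2390.0 to 2437), FAPs 2122 CPM (2105 to 2140) and Schwann-like cells 1929 CPM (1844 to 2016). Satellite cell-like cells had 758 CPM (705 to 814), endothelial-like cells 213 CPM (136 to 316), and the immune classes were at or under 89.8 CPM. In diaphragm smooth muscle-like cells had 3318 CPM (3158 to 3485), satellite cell-like cells 510.0 CPM (384 to 664) and FAPs 489 CPM (480 to 498). FAPs thus stood beside smooth muscle-like cells in quadriceps and well below them in diaphragm. An unnamed cluster led by Ccl21a and Mmrn1, with 19 and 9 cells, had 3019 and 4640 CPM.

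Igfbp6, which prefers IGF2 over IGF1, was a gene of the fibroblast classes. In diaphragm it was at 2935 CPM (2693 to 3193) in the Gm42418 Clu-led class, of which 5 cells held 73.8% of the UMIs, at 2627 CPM (2422 to 2846) in the ungated Slit2 Mfap4-led cells and at 2100.2 CPM (2083 to 2118) in FAPs. In quadriceps its level was 4180 CPM (4028 to 4337) in tenocyte-like cells and 3449.6 CPM (3427 to 3472) in FAPs, and at most 63.0 CPM in endothelial-like, smooth muscle-like, satellite cell-like and immune classes. Smooth muscle-like cells had 26.6 CPM, or 0.770% of the FAP level, with 51.1% of the UMIs in 5 cells, and satellite cell-like cells 25.2 CPM, or 0.730%. The Dcn shares were 0.431% in smooth muscle-like and 0.651% in satellite cell-like cells. Of the 2438 Igfbp6 UMIs behind the Schwann-like level of 2419 CPM, 2409 came from 20 cells of a cluster led by Sfrp5, which had Igfbp6 at 8349 CPM and Dcn at 15923 CPM. These 20 cells held 756 of the 1944 Igfbp5 UMIs of the class, so the Schwann-like Igfbp5 level rested on them less.

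Igfbp7 had its highest quadriceps levels in smooth muscle-like and tenocyte-like cells. Their levels were 3046 CPM (3019 to 3072) and 3230 CPM (3097 to 3368), against 1467 CPM (1453 to 1482) in FAPs and 572 CPM (527 to 621) in Schwann-like cells. Of the Schwann-like Igfbp7 UMIs, 42.5% lay in 5 cells. In diaphragm smooth muscle-like cells had 1938 CPM (1815 to 2066) and FAPs 1717 CPM (1701 to 1733), below the ungated Slit2 Mfap4-led cells at 2466 CPM (2267 to 2678). The level of 637 CPM in quadriceps T cell-like cells is no class level, since 5 of 133 cells held 96.8% of the 534 UMIs and 1 cell held 380, and the level was 25.5 CPM at a resolution of 2. The same holds for 416 CPM in endothelial-like cells, where 5 cells held 95.7% of the 47 UMIs.

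**Figure D2:**
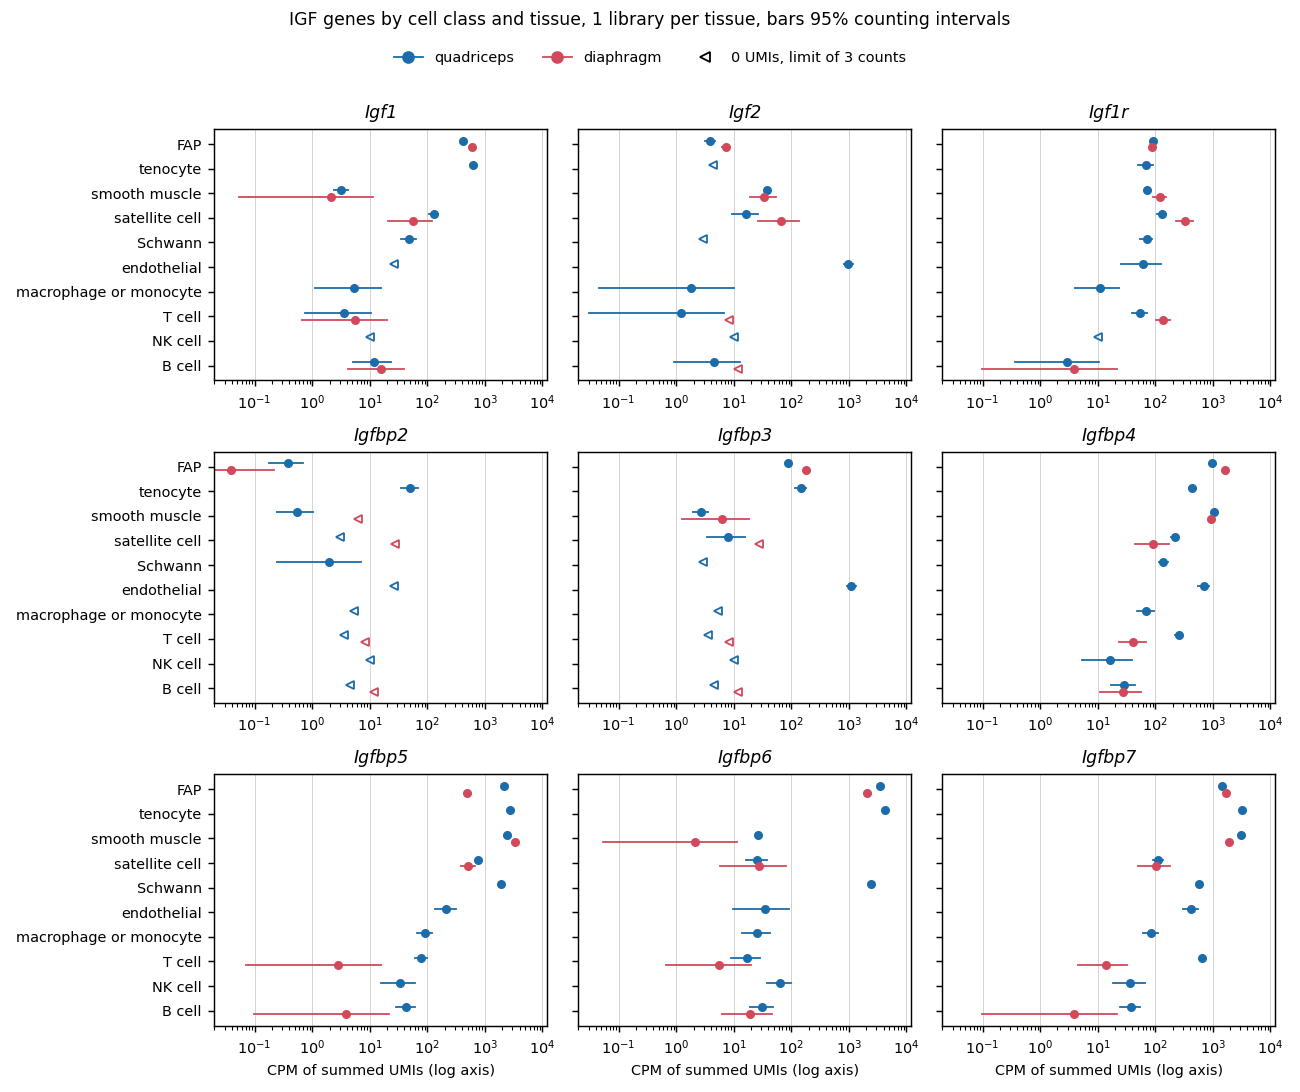
Level of each IGF gene in CPM of summed UMIs (horizontal log axis) by named cell class with at least 20 cells in the library, for quadriceps (blue) and diaphragm (red), with exact Poisson 95% intervals as bars and open triangles at the limit of 3 counts where no UMI was seen. Igf1 and Igfbp6 are high in FAPs and tenocyte-like cells, and Igf2 in endothelial-like cells at 984 CPM. Outside the immune classes Igf1r lies between 62.0 and 129 CPM in quadriceps and reaches 325 CPM in diaphragm satellite cell-like cells.

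Each class was also set against FAPs of the same quadriceps library by a fold of 2, with at least 50 CPM in the higher class. The members' counts are given beside the share of all genes past the same fold, as a description of 1 library. In smooth muscle-like cells 1 of 7 members past the level filter was at least 2-fold higher (Igfbp7), against 18.2% of all genes, and in tenocyte-like cells 1 of 7 (Igfbp7 again), against 7.16%. In endothelial-like cells 2 of 8 were higher (Igf2 and Igfbp3), against 25.5%, where Igf2 passed the level filter only through its endothelial-like level. In satellite cell-like cells 0 of 7 were higher, against 11.4%, and in Schwann-like cells 0 of 7, against 18.4%. Members at least 2-fold lower than in FAPs numbered 7 of 7 in B cell-like cells (38.6% of all genes), 7 of 7 in macrophage or monocyte-like cells (30.6%), 7 of 7 in NK cell-like cells (30.2%), 6 of 7 in T cell-like cells (33.8%), 6 of 7 in satellite cell-like cells (24.1%), 4 of 8 in endothelial-like cells (21.6%), 4 of 7 in Schwann-like cells (18.5%), 3 of 7 in smooth muscle-like cells (30.2%) and 1 of 7 in tenocyte-like cells (13.3%). The counts of lower members were in part fixed by the filter and are no support, since in B cell-like and NK cell-like cells 7 and 6 members passed it only through FAPs, in macrophage or monocyte-like cells 4, in T cell-like and smooth muscle-like cells 3, and in satellite cell-like, Schwann-like and endothelial-like cells 2.

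The second comparison set diaphragm FAPs against quadriceps FAPs. The diaphragm FAPs had less Igfbp5 and Igfbp6 and more Igf1, Igfbp3 and Igfbp4 than the quadriceps FAPs, while Igf1r was nearly level. Folds are ratios of CPM with exact conditional binomial 95% intervals for counting error, log2 values are of (CPM + 1), and no test was possible with 1 library per tissue. Of the 9 members 7 reached 50 CPM in either tissue. Of these, 1 (Igfbp3) was at least 2-fold higher in diaphragm, as were 3.66% of 3308 genes, and 1 (Igfbp5) at least 2-fold higher in quadriceps, as were 3.11%. The median log2 difference of the 7 was 0.23, that of all 3308 genes -0.10.

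Igfbp5 had the widest gap, with 56359 UMIs (2122 CPM) in quadriceps and 12653 UMIs (489 CPM) in diaphragm, a level 4.34-fold (4.26 to 4.42) higher in quadriceps. Thinned to 1000 UMIs, 44.7% of quadriceps FAPs and 16.9% of diaphragm FAPs had an Igfbp5 UMI (72.9% and 37.6% before thinning), against 4.19% of quadriceps B cell-like cells (12.1% before). When FAP subclusters were weighed alike, over the 8 with at least 20 cells in both tissues, the log2 difference went from -2.12 to -0.88. That ends the call. This alternative also left out the quadriceps subclusters led by Dmkn and Sbsn (7176 CPM) and by Tagln and Acta2 (2604 CPM). Equal weighting was thus not its only change. Igfbp6 was also lower in diaphragm, from 3449.6 to 2100.2 CPM, 1.64-fold (1.63 to 1.66) higher in quadriceps. Nearly every FAP held Igfbp6 in both tissues, as 99.1% and 99.7% had a UMI before thinning and 84.6% and 77.8% after (9.30% and 3.72% of quadriceps B cell-like cells).

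Igfbp3 was at 86.4 CPM (2295 UMIs) in quadriceps and 180.3 CPM (4666 UMIs) in diaphragm, 2.09-fold (1.98 to 2.19) higher in diaphragm. Its interval reaches below 2-fold, and the call was lost under 4 of 12 alternatives. The log2 difference was 0.59 without cells over the mitochondrial limit and 0.36 in cells of FAP-like clusters in place of the gate. It was 0.34 with the 8 shared subclusters weighed alike and 0.99 without Scrublet calls. Igfbp4 was at 983 and 1647 CPM, 1.68-fold (1.65 to 1.70) higher in diaphragm, and its log2 difference lay between 0.64 and 0.96 under the 12 alternatives.

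Igf1 was at 412 CPM in quadriceps FAPs and 589.9 CPM in diaphragm FAPs, 1.43-fold (1.40 to 1.47) higher in diaphragm. Its log2 difference of 0.52 went to 0.01 when the 8 shared subclusters were weighed alike. With only the Dmkn Sbsn-led subcluster left out it was 0.38. Igf2 had 104 UMIs (3.92 CPM) and 189 UMIs (7.30 CPM), a ratio of 1.87 (1.46 to 2.39) under the level filter. Igf1r was at 89.8 and 87.9 CPM, a ratio of 0.979 (0.924 to 1.04), and its sign was kept under 7 of 12 alternatives. Igfbp7 was at 1467 and 1717 CPM, 1.17-fold (1.15 to 1.19) higher in diaphragm, and after thinning 63.9% and 75.0% of FAPs had an Igfbp7 UMI (92.7% and 99.7% before), with 5.12% of quadriceps B cell-like cells (10.2% before).

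Other genes that differed between the FAP pools are given as a yardstick. The matrix genes Col1a1, Col3a1 and Dcn had log2 differences of 0.18, -0.15 and -0.13. Immediate early genes, which dissociation can switch on, were higher in diaphragm FAPs for 6 of 6 genes, from 1.84 (Ier2) to 4.17 (Atf3) on the log2 scale. Among FAPs with an immediate early gene share at or below the quadriceps median (1170 quadriceps and 107 diaphragm cells) the log2 difference was -1.81 for Igfbp5, 1.31 for Igfbp3, 0.64 for Igfbp4 and -0.74 for Igfbp6. Without FAPs that held a Tnmd UMI these were -1.89, 1.46, 0.70 and -0.81. Moving the Dcn minimum of the gate to 20 or to 100 UMIs gave -2.10 and -2.10 for Igfbp5 and 1.05 and 1.00 for Igfbp3.

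**Figure D3:**
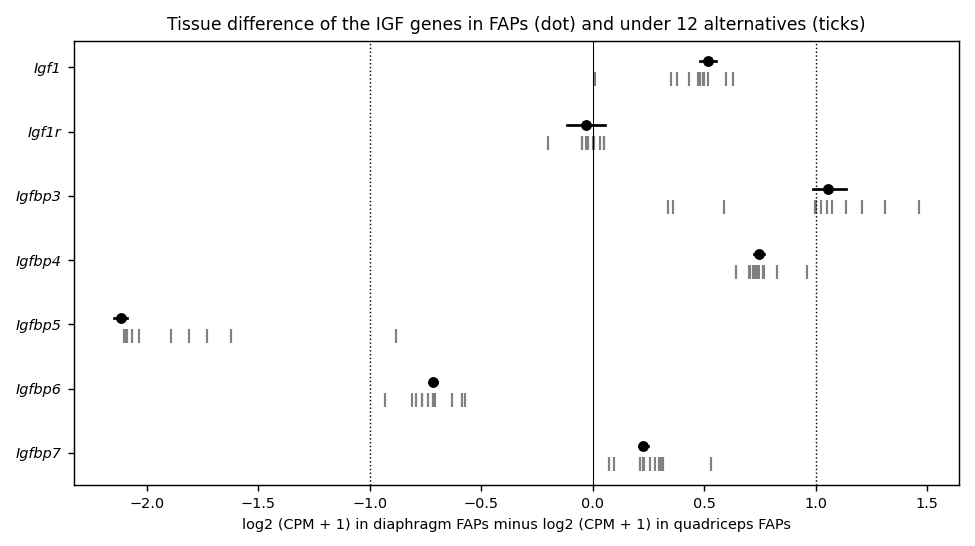
Difference of log2 (CPM + 1) between diaphragm and quadriceps FAPs for the 7 IGF genes with at least 50 CPM in either tissue (black dots, with 95% counting intervals) and its value under each of 12 alternatives (grey ticks), with dotted lines at a fold of 2. Igfbp5 lies at -2.12 with 1 tick above the lower line, and Igfbp3 at 1.05 with 4 ticks below the upper line.

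FAPs were not uniform in these genes. Clustered without any IGF gene, they fell into 11 subclusters, named here by their leading genes, of which 10 had at least 20 quadriceps cells and 8 at least 20 diaphragm cells. In quadriceps the highest subcluster level was 27.7 times the lowest for Igfbp5, 23.2 times for Igfbp7, 11.7 times for Igf1, 7.14 times for Igfbp4, 5.04 times for Igfbp6 and 1.62 times for Igf1r. For Igfbp3 the levels ran from 2.08 CPM (1 UMI) to 491 CPM. The diaphragm ratios were smaller, at 14.9 for Igfbp5, 3.25 for Igf1, 2.91 for Igfbp7, 2.73 for Igfbp6 and 1.51 for Igfbp4, over subclusters that lacked the Dmkn Sbsn-led cells, and Igf1r ran from 68.6 to 103 CPM. At a resolution of 1, with 15 and 14 subclusters, the Igf1r ratio was 2.43 in quadriceps and 3.04 in diaphragm, and in diaphragm the ratio was 43.1 for Igfbp5 and 4.40 for Igfbp6 and Igfbp7 ran from 318 to 3802 CPM, so these ranges depended on how finely FAPs were divided.

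At one end stood the Dmkn Sbsn-led subcluster of quadriceps (234 cells), with the highest quadriceps FAP levels of Igfbp5 (7176 CPM), Igfbp6 (6025 CPM) and Igfbp4 (2059 CPM) and the lowest of Igf1 (78.6 CPM) and Igfbp7 (134 CPM). It made up 10.0% of quadriceps FAPs and held 38.2% of their Igfbp5 UMIs. Diaphragm had 3 cells of it. Left out of both tissues, it took the log2 difference of Igfbp5 between the tissues from -2.12 to -1.62, which keeps the call. The Cmah Fam167a-led subcluster (418 quadriceps and 290 diaphragm cells) had the same pattern in both tissues, with Igfbp5 at 3354 and 1574 CPM, Igfbp6 at 5436 and 3160 CPM, Igf1 at 188 and 283 CPM and Igfbp7 at 518 and 852 CPM. Among the 8 diaphragm subclusters of at least 20 cells these were the highest Igfbp5 and Igfbp6 levels and the lowest Igf1 and Igfbp7 levels.

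At the other end, the Lect1 C4b-led subcluster (248 and 271 cells) had the highest quadriceps Igf1 level, at 921 CPM, with 617 CPM in diaphragm. It held 56.7% of the Igfbp3 UMIs of quadriceps FAPs in 10.6% of the cells, at 491 CPM, against 197 CPM in diaphragm. The Spp1 Apod-led subcluster (52 and 25 cells) had like Igf1 levels in both tissues, at 896 and 919 CPM. The Thbs4 Fmod-led subcluster (77 and 498 cells), which carries tendon genes such as Tnmd, had the highest quadriceps level of Igfbp7 (3110 CPM, 1838 CPM in diaphragm) and the highest diaphragm level of Igfbp3 (339.9 CPM, 62.4 CPM in quadriceps). The Cxcl14 Mme-led subcluster (369 and 200 cells) had the lowest quadriceps Igfbp5 level, at 259 CPM, with 341 CPM in diaphragm.

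The Tagln Acta2-led subcluster of quadriceps (55 cells) carried smooth muscle genes, had a median of 23918 UMIs and was over the mitochondrial limit in 96.4% of cells. Its levels lay toward those of smooth muscle-like cells, with Igfbp5 at 2604 CPM, Igfbp7 at 2181 CPM, Igf1 at 213 CPM and Igfbp6 at 1196 CPM, the lowest Igfbp6 level of the 10. Whether these were doublets was not tested beyond the Scrublet alternative.

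The tissue difference was then read within the 8 subclusters that had at least 20 cells in both tissues. Igfbp6 was lower in diaphragm in 8 of 8, with log2 differences from -1.07 to -0.21, and Igfbp4 was higher in 8 of 8, from 0.43 to 2.38. Igfbp5 was lower in 6 of 8, with a median of -0.83 and a range from -4.38 in the Thbs4 Fmod-led subcluster (2223 CPM in quadriceps, 106 CPM in diaphragm) to 2.32 in the Spp1 Apod-led subcluster (283 and 1414 CPM). Igfbp7 was higher in diaphragm in 7 of 8, Igf1 in 5 of 8 (from -0.58 to 0.59), Igf1r in 5 of 8 and Igfbp3 in 4 of 8 (from -1.32 to 3.37). The Igfbp4 and Igfbp6 differences thus kept their direction within every shared subcluster, which the Igf1, Igfbp3 and Igfbp5 differences did not. The subclusters of a library share their animals and are not replicates.

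**Figure D4:**
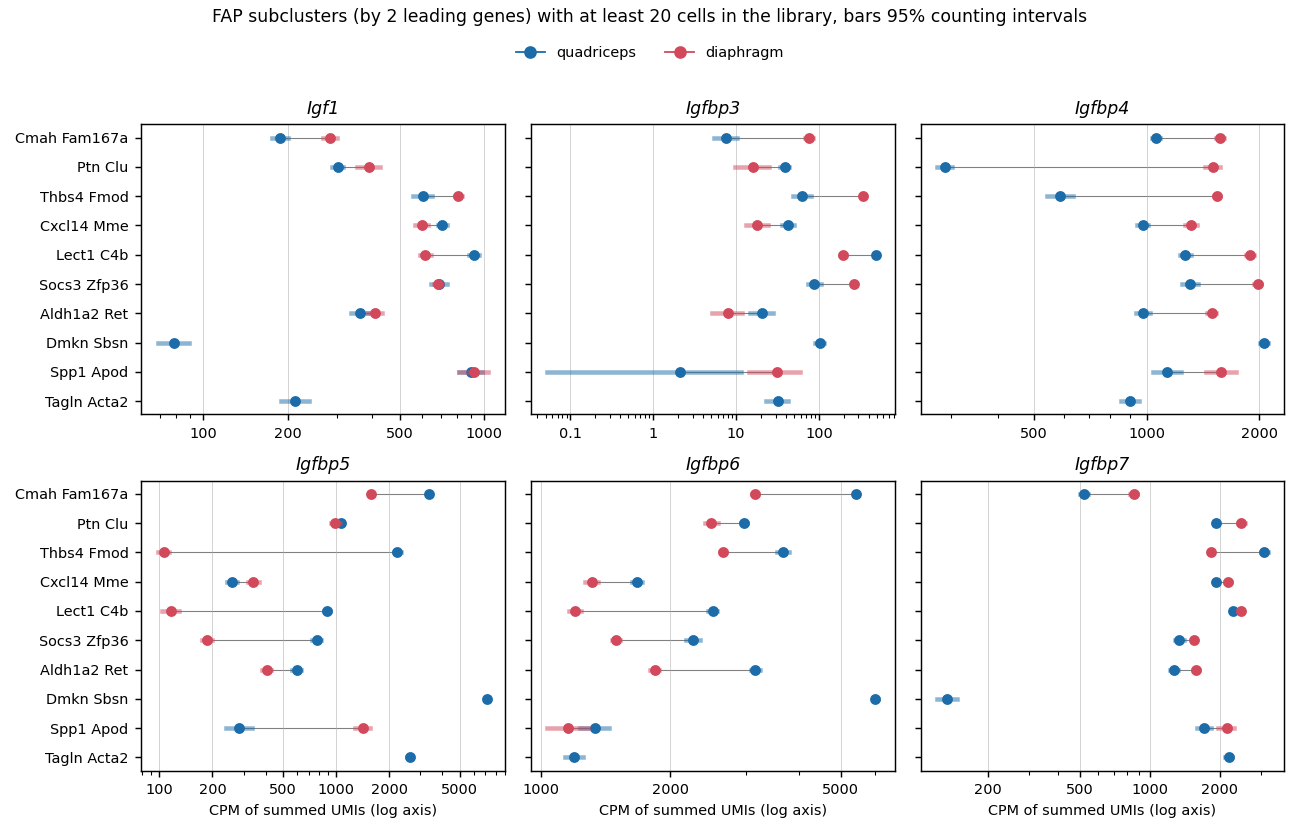
Levels of 6 IGF genes in CPM of summed UMIs (horizontal log axes, scaled per gene) in the FAP subclusters with at least 20 cells in the library, in quadriceps (blue) and diaphragm (red), with 95% counting intervals as bars and grey lines joining the tissues. Igfbp4 lies further right in diaphragm and Igfbp6 further right in quadriceps in each of the 8 shared subclusters, and the Dmkn Sbsn-led subcluster has Igfbp5 at 7176 CPM with Igf1 at 78.6 CPM.

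The same contrast was seen cell by cell. After thinning to 5000 UMIs (2234 quadriceps and 1967 diaphragm FAPs, with 105 and 41 shallower cells left out), the variance over the mean was 31.2 for Igfbp5 in quadriceps and 20.9 in diaphragm, 13.7 and 11.7 for Igfbp3, 9.50 and 5.44 for Igfbp6, and 1.18 and 1.16 for Igf1r, where 1 is the value of counting alone. Igfbp3 was the most concentrated of the 7 level-filtered members, as the cells of highest count, 10% of all, held 96.8% of its UMIs in quadriceps and 83.8% in diaphragm. For Igfbp5 these cells held 54.5% in quadriceps and 79.7% in diaphragm, and 64.9% and 30.6% of cells had a UMI.

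Across the 2234 quadriceps cells, Spearman's rho was 0.45 between Igfbp5 and Igfbp6, 0.36 between Igf1 and Igfbp7, -0.42 between Igf1 and Igfbp6, -0.44 between Igfbp6 and Igfbp7 and -0.35 between Igfbp5 and Igfbp7. Across the 1967 diaphragm cells the values were 0.17 for Igfbp5 with Igfbp6, -0.15 for Igf1 with Igfbp6, -0.16 for Igfbp6 with Igfbp7, -0.17 for Igfbp5 with Igfbp7 and 0.23 for Igf1 with Igfbp3. These cells share 1 library and 1 pool of animals in each tissue, so the values describe the libraries. Between Igf1 and Igfbp5 rho was -0.25 in quadriceps and -0.08 in diaphragm, and between Igf1 and Igfbp7 it was 0.10 in diaphragm. Igf1 and Igfbp7 thus ranked together and apart from Igfbp5 and Igfbp6 in quadriceps FAPs, and only weakly so in diaphragm FAPs.

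Of 41 further genes of the IGF axis, 17 passed the level filter in FAPs, 1 was at least 2-fold higher in diaphragm and 0 in quadriceps, with a median log2 difference of 0.12. The 1 was Htra3, a secreted serine protease of a family that cleaves IGF binding proteins, at 666 and 1552 CPM (2.33-fold, 2.29 to 2.37). Its relative Htra1 had 335 and 436 CPM in FAPs, and 821 CPM in quadriceps tenocyte-like and 665 CPM in endothelial-like cells. Of the proteases that cleave IGF binding proteins, Pappa had 17.0 and 21.5 CPM in FAPs and Pappa2 had 9.22 CPM (245 UMIs) and 0.309 CPM (8 UMIs), both under the filter, and Pappa2 reached 199 CPM (167 to 235) in quadriceps tenocyte-like cells. Stc2, which encodes an inhibitor of PAPP-A, had 3.39 and 16.5 CPM.

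Receptors and uptake genes showed no call in the 3 of 5 genes past the filter. Igf2r, which clears IGF2, had 129 and 138 CPM in FAPs, and the broad uptake receptor Lrp1 had 765 and 1017 CPM. Insr, the insulin receptor, was under the filter at 24.5 and 27.1 CPM. Upstream, the growth hormone receptor gene Ghr had 52.1 and 73.3 CPM and its feedback inhibitor Socs2 77.7 and 118 CPM, both short of a 2-fold difference. The 9 of 14 adaptor and kinase genes past the filter gave no call, and none of the 3 carrier genes (Igfbp1, Igfbpl1 and Igfals) or of the 5 mRNA binding and neighbour genes reached 50 CPM. H19 had 9.04 CPM in quadriceps FAPs and 38.4 CPM in diaphragm FAPs, a higher level in the same tissue as that of Igf2.

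Genes of like pattern were ranked by Pearson's r of log2 (CPM + 1) over the 19 class by tissue profiles, which share libraries and depth, among 7236 genes. Igf1 was most like Angptl1 (0.94), Chrd (0.94) and Ptgfr (0.93), and Igf2 most like Fblim1 (0.90), Hey1 (0.83) and Tspan12 (0.82). Igfbp6 was most like Dcn (0.97), itself a gene of the FAP gate, then Adamtsl2 (0.94) and Smoc2 (0.93). The closest gene was Kazald1 for Igfbp3 (0.91), Hspb8 for Igfbp4 (0.92), Syde1 for Igfbp5 (0.91), Fat1 for Igfbp7 (0.93) and Slc39a14 for Igf1r (0.86).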

How the data were processed

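Droplet libraries of quadriceps and diaphragm mononuclear cells (1 each, 5 animals pooled) were compared. The deposited values were UMI counts, not normalised. The submitters' processing notes name Cell Ranger 3.0.0, Seurat and the mm10 build as what the authors used. No normalised values were used.

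Barcodes were kept from 1000 UMIs up to an upper limit, 3 scaled median absolute deviations above the median on a log10 scale. No mitochondrial limit was set in the results given first, since the FAP rule names none and 5% removes most smooth muscle-like, satellite cell-like, endothelial-like and tenocyte-like cells; it was an alternative. Both libraries were clustered together without IGF genes (2000 variable genes, 30 principal components, 20 neighbours, Leiden resolution 1), and clusters were named from marker lists. FAPs were clustered again at 0.5 over 10 components. Scrublet called 98 quadriceps and 4 diaphragm barcodes; the diaphragm share is too low to count as a working call, and doublets were left out only as an alternative.

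UMIs were summed per class and library and scaled to CPM. A difference was called at a fold of 2 with at least 50 CPM in the higher group, and log2 values used a pseudocount of 1. Shares were taken after thinning each cell to 1000 UMIs, with exact binomial 95% intervals. Intervals cover counting error only, and a count of 0 was given a limit of 3 counts. The fold computation was checked on simulated counts with 200 changed genes. All 9 members are named; further axis genes are named where they passed the fold, lie next to a member or act on one, and up to 3 genes of like pattern are named per member. Members and lists were chosen with earlier results of these data known, and the leading genes of subclusters were named after their values were seen. Promoter sequences were matched by symbol to RefSeq for 9 of 9 members. Python 3.11.15, scanpy 1.11.5, leidenalg 0.10.2, numpy 2.4.6, scipy 1.17.1, pandas 2.3.3 and matplotlib 3.10.9 were used.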

Additional observations from a re-analysis of the deposited data

Results flagged for a closer look

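In 7 cases a class differed between the tissues in the direction opposite to FAPs. These differences between classes were not tested, since each tissue was 1 library. In smooth muscle-like cells, of which diaphragm had 42, the log2 difference of diaphragm over quadriceps was 0.46 for Igfbp5 (2414 and 3318 CPM), -0.65 for Igfbp7 (3046 and 1938 CPM) and -0.15 for Igfbp4 (1043 and 942 CPM), against -2.12, 0.23 and 0.74 in FAPs. In satellite cell-like cells it was -1.19 for Igf1 (127 and 6 UMIs) and -1.21 for Igfbp4 (215 and 10 UMIs). In T cell-like cells it was -2.60 for Igfbp4 (214 and 15 UMIs) and -5.43 for Igfbp7 (534 and 5 UMIs), the last from a quadriceps sum of which 5 cells held 96.8%.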

How the results depend on the processing

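No paired analysis was possible because each tissue had 1 library. Of 108 log2 differences of members between FAP pools under 12 alternatives, 49 moved by less than their counting interval, 59 moved by more and 0 changed the sign of a called difference. The 1 member higher in diaphragm became 0 with the mitochondrial limit, with cells of FAP-like clusters in place of the gate and without Scrublet calls. Both this count and that of the 1 member higher in quadriceps became 0 with the 8 shared subclusters weighed alike. That alternative leaves out the Dmkn Sbsn-led and Tagln Acta2-led subclusters. The cause was not tested. Members with their highest level in FAPs numbered 0 in quadriceps, but 7 with the mitochondrial limit and 1 (Igfbp3) with a minimum of 3000 UMIs, and 5 in diaphragm, but 8 with the mitochondrial limit and 1 with unnamed classes included, which was chosen after seeing the data. That limit leaves 6 and 2 classes of at least 20 cells. The counts of 7, 5 and 8 each include Igfbp2, which had 10 UMIs in quadriceps FAPs and 1 in diaphragm FAPs. Leaving out the Dmkn Sbsn-led subcluster or gated cells of other named clusters was chosen after seeing the data and kept both calls. Scaling by the median of ratios shifted all genes by -0.08 on the log2 scale. Depth limits Igf2 and Igfbp2 in FAPs and every class of under 50 cells.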
